A study of Mus musculus with 10 samples.

Results

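The club cell secretoglobins examined here were 4 genes, Scgb1a1, Scgb3a1, Scgb3a2 and Scgb1c1, taken by symbol from the 23930 targets of an amplicon-based transcriptome panel. Each gene was read by 1 amplicon, and all 4 passed the filter of 30 summed counts in every comparison. Lung RNA came from 10 libraries in 3 groups. HDM+Nafamostat (3 libraries) were mice instilled intranasally with an extract of the house dust mite Dermatophagoides pteronyssinus and given nafamostat, an inhibitor of serine proteases, at 20 mg/kg by the intraperitoneal route 30 min before every instillation. HDM (3 libraries) were mice instilled with the extract, and PBS (4 libraries) were mice instilled with saline buffer. All groups carried the wildtype genotype. The study's methods describe female BALB/c mice of 8 to 9 weeks and 2 instillations per week for 3 weeks (6 weeks in its figure legends). The dose was 10 µg in the methods and 10 mg in the sample labels. All groups were recorded at 24 h after the last instillation. Nafamostat was dissolved in 3% acetic acid, and the labels do not say whether the HDM and PBS mice here received that vehicle. The tissue was the upper portion of the left lobe, and nothing assigns libraries to the separate experiments from which it came. Because whole tissue was sequenced, fewer club cells and less secretoglobin RNA per cell cannot be told apart.

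Secretoglobins are small secreted proteins that form dimers around a hydrophobic pocket. In the mouse lung some of them, such as Scgb1a1 and Scgb3a2, are signature products of club cells, the non-ciliated secretory cells of the airways. Club cells also carry many of the enzymes that oxidize and conjugate inhaled chemicals, and they act as progenitors for ciliated and goblet cells. During allergic inflammation in mice, club cells are known to take on mucus production under type 2 cytokines. The secretoglobin genes are classical targets of NKX2-1 and of forkhead (FOXA) factors in airway epithelium.

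To show what the available promoter sequence of these genes holds, the window of 250 bases before to 50 bases after the transcription start was taken from RefSeq (build GRCm38.p6), where 2 of the 4 genes, Scgb3a1 and Scgb1c1, matched. They are shown because no window was available for the other members. Scgb3a1 was not lower after HDM and Scgb1c1 was lower. Scgb3a1 lies at chr11:49663345-49663644 and Scgb1c1 at chr7:140845315-140845614, both on the plus strand. Capitals mark the core NKX2-1 motif CTTGAG and the forkhead motif TGTTTGC, searched on both strands, so that CTCAAG and GCAAACA are minus-strand matches.
Scgb3a1: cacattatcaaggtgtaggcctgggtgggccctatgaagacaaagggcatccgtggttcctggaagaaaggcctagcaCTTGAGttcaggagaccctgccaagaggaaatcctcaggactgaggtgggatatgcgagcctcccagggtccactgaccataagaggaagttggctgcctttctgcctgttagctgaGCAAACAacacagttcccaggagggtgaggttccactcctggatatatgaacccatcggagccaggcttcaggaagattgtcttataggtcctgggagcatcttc
Scgb1c1: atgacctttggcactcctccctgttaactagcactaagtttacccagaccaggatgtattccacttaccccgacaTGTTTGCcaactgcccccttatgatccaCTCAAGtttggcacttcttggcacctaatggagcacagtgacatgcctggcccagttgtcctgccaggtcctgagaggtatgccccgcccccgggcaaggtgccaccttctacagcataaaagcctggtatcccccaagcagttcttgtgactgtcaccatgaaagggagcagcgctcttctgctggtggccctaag
Each of these promoters held 1 match to either motif, and the marked matches do not overlap. In Scgb3a1, CTTGAG began at base -172 from the start site on the plus strand and TGTTTGC lay on the minus strand from base -55. In Scgb1c1, CTTGAG lay on the minus strand from base -147 and TGTTTGC on the plus strand from base -175. Among 32851 mouse promoter windows of the same length, 15.9% held CTTGAG, 5.07% held TGTTTGC and 0.81% held both. The second forkhead motif searched, TGTTTAC, is in 3.65% of windows, the palindromic STAT6 motif in 6.95% and the TATA motif TATAAA in 13.6%. None of these 3 motifs was matched in the 2 windows. The share of windows with CTTGAG and either forkhead motif was not computed. A match is a description of the letters and not evidence of binding.

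The libraries held 5901279 to 9666354 counts. Levels are given as CPM, the counts relative to library size, after scaling by trimmed mean of M-values (TMM), per amplicon and not per length, so an order between genes also carries the efficiency of their amplicons. A difference was called when its p-value from the edgeR quasi-likelihood test, adjusted by Benjamini-Hochberg over all targets tested, was under 0.05. Some libraries stood apart in genes that lung should not express: the summed level of 1057 olfactory receptor targets was 28.3 to 416 CPM in HDM+Nafamostat, 137 to 1649 CPM in HDM and 52.1 to 619 CPM in PBS, highest in HDM+Nafamostat replicate 2, HDM replicate 3 and PBS replicate 2. The summed level of 8 liver genes was 1.65 to 98.5 CPM in HDM+Nafamostat, 31.2 to 174 CPM in HDM and 2.29 to 30.9 CPM in PBS, with Alb, serum albumin, as the leading gene. The part of either in the results was not tested, and losses of a call without these libraries are given beside the genes named below.

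**Figure D1:**
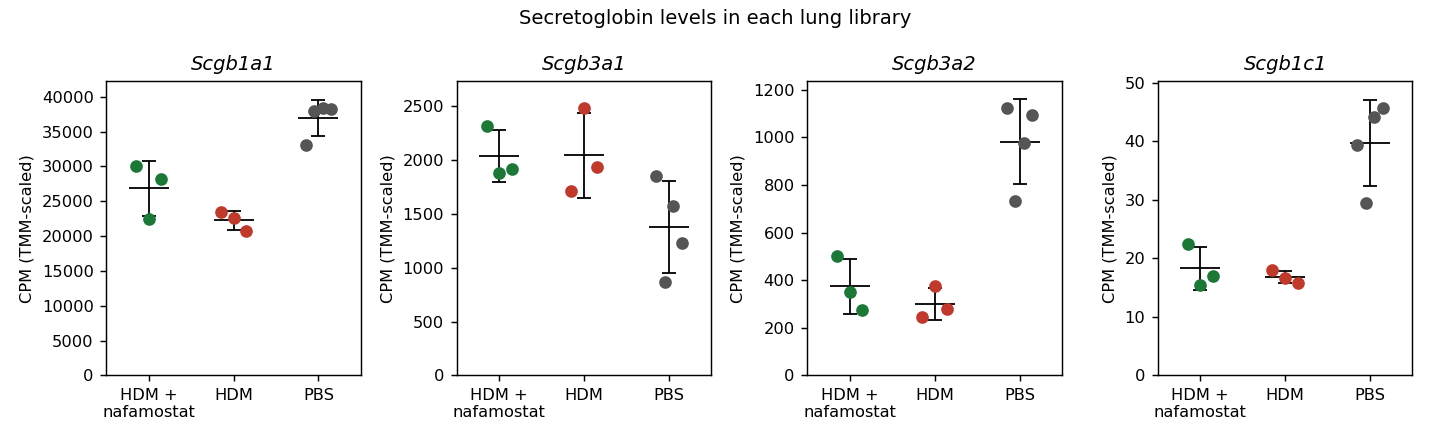
Level of each secretoglobin (CPM, TMM-scaled, axis from 0) in the HDM+Nafamostat, HDM and PBS libraries; points are libraries, the long bar is the group mean and the whiskers are 1 SD. For Scgb1a1, Scgb3a2 and Scgb1c1 every HDM library lies below every PBS library, while the Scgb3a1 points of HDM and PBS overlap.

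After HDM, 3 of the 4 secretoglobins were lower than in PBS lungs and Scgb3a1 was not. Scgb3a2 fell to 30.3% of its PBS level, Scgb1c1 to 41.9% and Scgb1a1 to 59.6%. In this comparison 14.2% of all 14608 targets tested were called lower and 15.3% higher, 17.2% had an HDM group lying wholly below the PBS group, and the median log2 fold change over all targets was 0.02. Scgb3a2 and Scgb1c1 were also at least 2-fold lower, as were 4.10% of all targets.

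Scgb1a1, the founding club cell secretory protein, which binds hydrophobic ligands and dampens phospholipase A2 activity, lies on chromosome 19 (9083636 to 9087958, minus strand, GRCm38) and has 3 exons. It took the most counts of any target in 8 of the 10 libraries and had rank 3 in HDM replicate 1 and rank 2 in HDM replicate 3, behind Retnla and, in HDM replicate 1, also Sftpc. Its level was 23435, 22636 and 20762 CPM in the HDM libraries, against 33053, 37904, 38413 and 38201 CPM in the PBS libraries. All HDM libraries were low, and the groups did not overlap. The mean was 22278 ± 1372 CPM in HDM (SD, n = 3) and 36893 ± 2568 CPM in PBS (SD, n = 4). The log2 fold change was -0.75 (SE 0.15, 95% confidence interval -1.06 to -0.43, edgeR adjusted p = 0.00134). Of all targets tested, 10.9% had a lower log2 fold change. Scgb1a1 alone was 2.00 to 2.25% of all counts in HDM libraries and 3.43 to 4.08% in PBS libraries. Without HDM replicate 3 and PBS replicate 2 together, a choice made after seeing the data, the log2 fold change was -0.68 and the call was lost (edgeR adjusted p = 0.0971).

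Scgb3a2, a secretoglobin of bronchioles that has growth-factor-like activity in the developing mouse lung, had the largest fold change of the 4 genes after HDM. The gene lies on chromosome 18 (43764289 to 43767399, plus strand, GRCm38) and has 2 exons in its first annotated transcript. It was measured at 247, 376 and 280 CPM in the HDM libraries, against 1124, 734, 976 and 1093 CPM in the PBS libraries. All HDM libraries lay well below the lowest PBS library, replicate 2, so the groups did not overlap. The log2 fold change was -1.72 (SE 0.19, 95% confidence interval -2.12 to -1.33, edgeR adjusted p = 7.95e-06). Only 1.01% of all targets tested had a lower log2 fold change. In rank by counts within a library, Scgb3a2 stood between 307 and 608 in HDM libraries and between 68 and 126 in PBS libraries.

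Scgb1c1, related to a secretory protein of the rat olfactory mucosa, was the weakest of the 4 signals. It lies on chromosome 7 (140845547 to 140846769, plus strand, GRCm38). Its level was 17.9, 16.7 and 15.8 CPM in the HDM libraries (155, 118 and 119 counts), against 39.4, 29.5, 44.2 and 45.7 CPM in the PBS libraries (241, 203, 345 and 290 counts). The HDM libraries were all low and close together, and PBS replicate 2 was the lowest of its group. The log2 fold change was -1.26 (SE 0.18, 95% confidence interval -1.64 to -0.87, edgeR adjusted p = 1.12e-04), and 3.12% of all targets tested had a lower one. Because this gene is known from nasal epithelium, a list of nasal gland and olfactory mucosa genes was read beside it. Of its 12 genes on the panel, 3 (Bpifb3, Bpifb4 and Obp2a) were at 0 counts in all libraries, and the summed level was 5.83 to 10.0 CPM in HDM+Nafamostat, 7.63 to 11.5 CPM in HDM and 5.63 to 9.62 CPM in PBS. The edgeR test called 0 of the 3 nasal genes tested in HDM against PBS, with 0 at an unadjusted p under 0.05 and 0 by DESeq2.

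Scgb3a1, the secretoglobin of the larger, proximal airways, did not follow the other genes. It lies on chromosome 11 (49663610 to 49665118, plus strand, GRCm38). Its level was 1714, 2482 and 1929 CPM in the HDM libraries, against 1849, 869, 1569 and 1223 CPM in the PBS libraries. PBS replicate 1 lay above HDM replicate 1, so the groups overlapped. The log2 fold change was 0.55 (SE 0.21, 95% confidence interval 0.10 to 1.00, edgeR adjusted p = 0.0652), short of the threshold. The call changed with single choices: it passed without PBS replicate 1 (log2 fold change 0.72, edgeR adjusted p = 0.0226), with DESeq2 (adjusted p = 0.0255), and in an edgeR fit of all 3 groups (adjusted p = 0.0405).

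Treatment with nafamostat did not bring a detectable change in any of the 4 secretoglobins relative to HDM alone. In this comparison 0.951% of 14413 targets tested were called higher and 1.97% lower. Of the 4 secretoglobins, 0 were called by the edgeR test, 0 had an unadjusted p under 0.05, and 0 were called by DESeq2. The HDM+Nafamostat and HDM libraries overlapped for every secretoglobin, whereas 25.5% of all targets tested had groups that did not overlap in one direction or the other.

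Scgb1a1 was at 30013, 22415 and 28183 CPM in HDM+Nafamostat libraries, against 23435, 22636 and 20762 CPM in HDM libraries. HDM+Nafamostat replicates 1 and 3 were above all HDM libraries, and replicate 2 was within their range. The log2 fold change was 0.27 (95% confidence interval -0.09 to 0.63, edgeR adjusted p = 0.364). Scgb3a2 was at 502, 349 and 273 CPM in HDM+Nafamostat libraries, against 247, 376 and 280 CPM in HDM libraries. HDM+Nafamostat replicate 1 was the highest of the 6, and its log2 fold change was 0.31 (95% confidence interval -0.13 to 0.76, edgeR adjusted p = 0.401). Without HDM+Nafamostat replicate 1 the Scgb3a2 difference was 0.039. These intervals leave room for a rise of over 1.5-fold for each gene. Scgb1c1 was at 22.5, 15.4 and 17.0 CPM in HDM+Nafamostat libraries, against 17.9, 16.7 and 15.8 CPM in HDM libraries (log2 fold change 0.12, 95% confidence interval -0.30 to 0.54, edgeR adjusted p = 0.760). Scgb3a1 was at 2314, 1875 and 1912 CPM in HDM+Nafamostat libraries, against 1714, 2482 and 1929 CPM in HDM libraries (log2 fold change -0.01, 95% confidence interval -0.36 to 0.35, edgeR adjusted p = 0.987). The sign of that difference turns to positive with library totals in place of TMM (0.036).

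**Figure D2:**
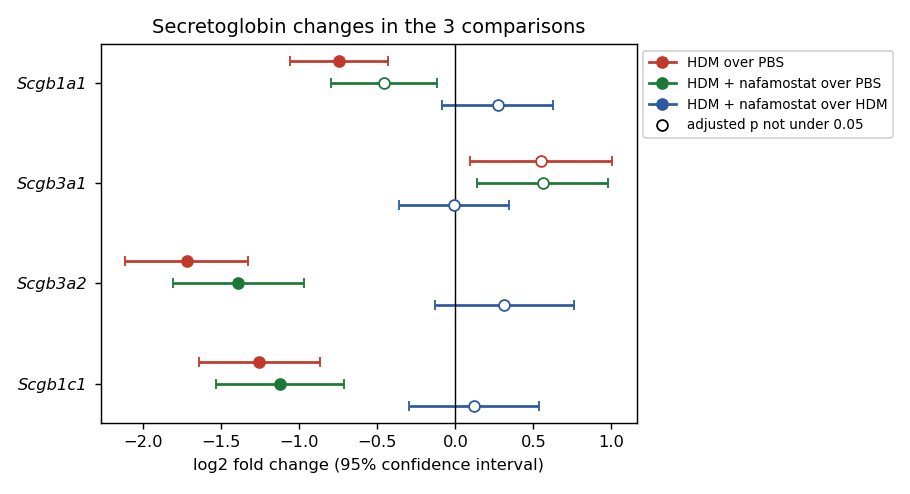
Log2 fold change of each secretoglobin in the 3 comparisons (x axis, 0 means no change); points are edgeR estimates, bars are 95% confidence intervals, and open points have an adjusted p that is not under 0.05. The HDM+Nafamostat over HDM intervals of all 4 genes include 0. Over PBS, the intervals of Scgb1a1, Scgb3a2 and Scgb1c1 lie wholly below 0 and those of Scgb3a1 wholly above 0. The intervals are not adjusted over all targets, so an open point can have an interval that leaves out 0.

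Set against PBS, HDM+Nafamostat lungs still had lower Scgb3a2 and Scgb1c1. Of 14079 targets tested, 5.53% were called lower, 8.73% higher, 1.14% lower by at least 2-fold, and 10.4% had an HDM+Nafamostat group wholly below the PBS group. Scgb3a2 was at 38.1% of its PBS level (log2 fold change -1.39, edgeR adjusted p = 1.17e-04). Scgb1c1 was at 46.0% of its PBS level (log2 fold change -1.12, edgeR adjusted p = 7.55e-04). Scgb1a1, at 26871 ± 3966 CPM in HDM+Nafamostat (SD, n = 3) and 36893 ± 2568 CPM in PBS (SD, n = 4), had groups that did not overlap. Its log2 fold change was -0.46 (95% confidence interval -0.80 to -0.12), with an edgeR adjusted p of 0.0655 that missed the threshold, while DESeq2 called it (adjusted p = 0.00559). Scgb3a1 lay above all PBS libraries in every HDM+Nafamostat library, at 1875 CPM in the lowest (replicate 2) against 1849 CPM in PBS replicate 1. Its log2 fold change was 0.56 (95% confidence interval 0.14 to 0.98, edgeR adjusted p = 0.0704), and DESeq2 called it as well (adjusted p = 0.0389). Without PBS replicate 1 the edgeR test also called it (0.73, adjusted p = 0.0217). The share of all targets with an HDM+Nafamostat group wholly above the PBS group was not computed. HDM against PBS and HDM+Nafamostat against PBS share the PBS libraries, so their values are given side by side and are not independent.

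The balance between the secretoglobins was read as the log2 ratio of their counts within each library, a measure that needs no scaling between libraries. The widest shift was in Scgb3a1 over Scgb3a2, the proximal gene against the bronchiolar gene. Scgb3a1 had 4.61, 5.38 and 6.99 counts for each count of Scgb3a2 in HDM+Nafamostat libraries and 6.94, 6.59 and 6.88 in HDM libraries, against 1.65, 1.18, 1.61 and 1.12 in PBS libraries. Every library of mite-exposed mice had a ratio above every PBS library, and the HDM libraries lay close together. The mean log2 ratio was 2.77 ± 0.04 in HDM (SD, n = 3) and 0.45 ± 0.29 in PBS (SD, n = 4), a difference of 2.31. An exact two-sided permutation test gave p = 0.0571, the smallest that 3 against 4 libraries allow, and an adjusted p of 0.103 over 18 ratio comparisons, so this design cannot pass 0.05.

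The other ratios with Scgb3a1 or Scgb3a2 also had HDM and PBS groups apart, with 1 exception. Scgb3a1 over Scgb1c1 had a mean log2 ratio of 6.90 ± 0.32 in HDM (SD, n = 3) and 5.08 ± 0.36 in PBS (SD, n = 4). Scgb1a1 over Scgb3a1 was 3.46 ± 0.29 in HDM (SD, n = 3) and 4.80 ± 0.54 in PBS (SD, n = 4). Scgb1a1 over Scgb3a2 was 6.23 ± 0.33 in HDM (SD, n = 3) and 5.25 ± 0.34 in PBS (SD, n = 4). Of the 6 ratios, 5 had HDM and PBS libraries that did not overlap, and the exception was Scgb3a2 over Scgb1c1. The same count of 5 and the same exception held for HDM+Nafamostat against PBS, and all 6 ratios overlapped between HDM+Nafamostat and HDM (exact two-sided permutation p from 0.2 to 0.9, smallest possible 0.1). The 6 ratios are built from 4 genes and are not independent, and the share without overlap among ratios of other genes was not computed. Scgb1a1 over Scgb1c1 was only just apart, at 10.35 in HDM replicate 1 and 10.32 in PBS replicate 2.

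**Figure D3:**
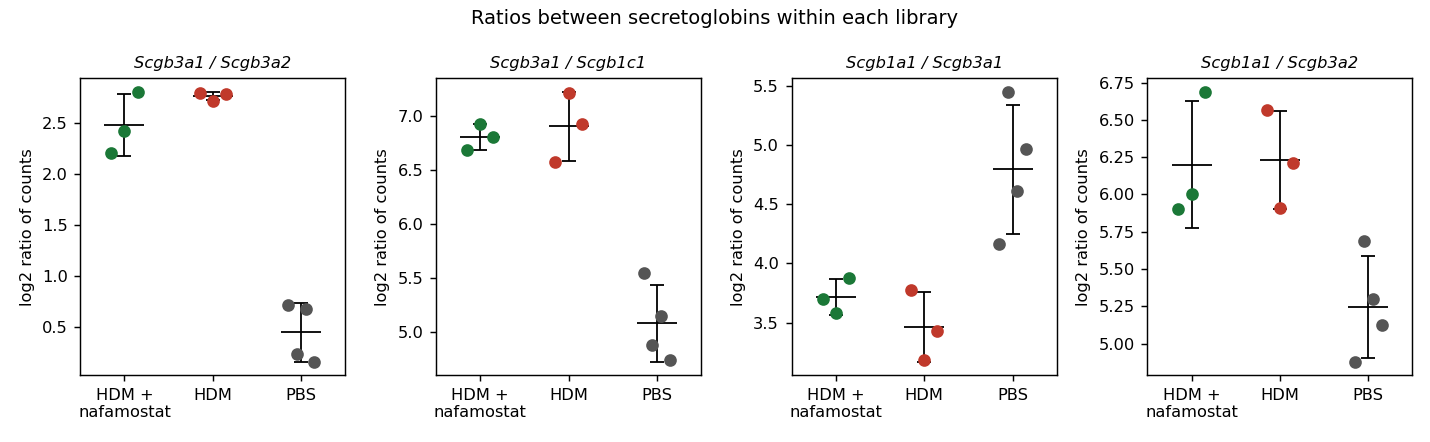
Log2 ratio of counts between 2 secretoglobins within each library (y axis, each panel with its own range that does not start at 0), in HDM+Nafamostat, HDM and PBS; points are libraries, bars are the mean and 1 SD. The Scgb3a1 over Scgb3a2 panel shows PBS libraries below 1 and all other libraries above 2 on the log2 scale.

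No other secretoglobin was detected. The panel holds 14 further targets whose symbols begin with Scgb, all of subfamilies 1b and 2b, many of which encode androgen-binding proteins of mouse glands, and all 14 had 0 counts in all 10 libraries. Since 3 counts is the floor used here, each was below 0.310 to 0.508 CPM per library. The 4 members together made up 2.52 to 3.21% of all counts in HDM+Nafamostat libraries, 2.22 to 2.54% in HDM libraries and 3.74 to 4.35% in PBS libraries, with Scgb1a1 providing 88.7 to 95.9% of that sum.

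A list of detoxification enzymes of club cells was read beside the secretoglobins, and the whole tissue does not place their change in club cells. Of 21 such genes tested in HDM against PBS, 16 fell, 3 rose and 2 did not pass, with a median log2 fold change of -1.02, beside 0.02 over all targets. Cyp2f2, the club cell cytochrome that activates naphthalene, averaged 1017 ± 211 CPM in HDM (SD, n = 3) and 5104 ± 1069 CPM in PBS (SD, n = 4), a log2 fold change of -2.34 (SE 0.20, edgeR adjusted p = 8.52e-07). Pon1, an esterase of oxidized lipids and organophosphates, had the lowest value of the list (-2.94). Gstm1, a glutathione transferase, was at -1.42, Cyp2b10 at -1.62, Cyp4b1 at -1.43, and Por, the reductase that hands electrons to all of these cytochromes, at -1.52. Ephx1, the microsomal epoxide hydrolase, was at -1.29, and the abundant carbonyl reductase Cbr2 and retinal dehydrogenase Aldh1a1 at -0.73 and -0.83. The enzymes that rose included Gsto1 (1.13), an omega-class transferase also found in macrophages, and Mgst1 (0.62). Summed over the list, the level was 6687 to 8142 CPM in HDM and 15616 to 16933 CPM in PBS.

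In HDM+Nafamostat against HDM, 4 of the 21 enzymes rose, 1 fell and 16 did not pass, with a median log2 fold change of 0.56, beside -0.01 over all targets. The genes that rose were Cyp2f2 (1.00, edgeR adjusted p = 0.0149), Cyp4b1 (0.75), Ephx1 (0.69) and Fmo1 (0.61), a flavin monooxygenase, and the gene that fell was Mgst1 (-0.49). The summed level was 9049 to 11496 CPM in HDM+Nafamostat and 6687 to 8142 CPM in HDM. No secretoglobin was called in the same comparison, and the difference between the enzymes and the secretoglobins was not tested. The number of enzymes that rose moved with the libraries, between 0 without HDM+Nafamostat replicate 3 and 8 without HDM+Nafamostat replicate 2. It was 2 without HDM+Nafamostat replicate 1 or HDM replicate 1, and 1 without HDM replicate 3. DESeq2 called 10 of the 21 higher, edgeR with no filter on low counts called 11, and 12 had an unadjusted edgeR p under 0.05 in that direction. Cyp2f2 lost its call only without HDM+Nafamostat replicate 3 (0.89, edgeR adjusted p = 0.103), among the settings run. Cyp4b1 lost its call without any 1 library other than HDM+Nafamostat replicate 2 (0.62 to 0.81). Ephx1 lost its call without HDM+Nafamostat replicate 3, HDM replicate 2 or HDM replicate 3 (0.58 to 0.71), and Fmo1 without any 1 library other than HDM+Nafamostat replicate 2 or HDM replicate 2 (0.51 to 0.65). Mgst1 lost its call without any 1 library other than HDM+Nafamostat replicate 2 (-0.52 to -0.47). Without HDM+Nafamostat replicate 2 and HDM replicate 3 together, Fmo1 (0.55) and Mgst1 (-0.51) also lost their calls. Set against PBS, 10 of the 21 enzymes were lower in HDM+Nafamostat and 1, Gsto1, was higher (1.17). Cyp2f2 was at -1.33 and Gstm1 at -1.24 in that comparison.

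**Figure D4:**
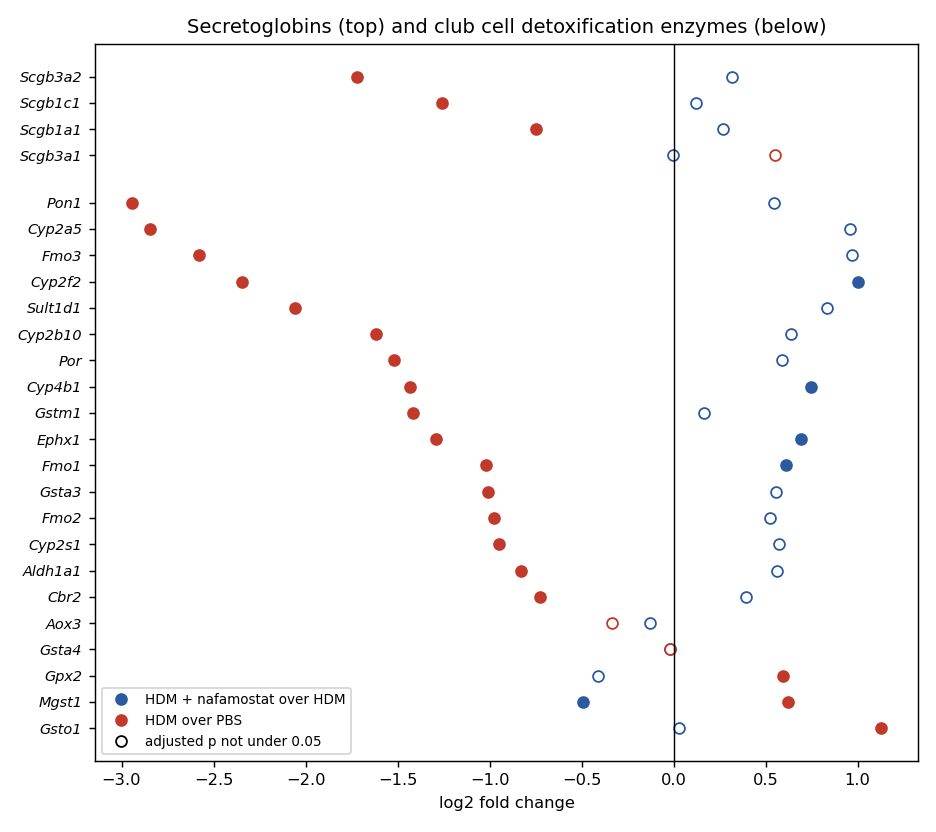
Log2 fold change (x axis) of the 4 secretoglobins and the 21 club cell detoxification enzymes, HDM+Nafamostat over HDM in blue and HDM over PBS in red, with genes in order of the HDM over PBS value; open points have an edgeR adjusted p that is not under 0.05. In red, 16 enzymes lie to the left with filled points, and in blue 4 enzymes and no secretoglobin lie to the right with filled points.

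Other genes of club cells were split in HDM against PBS: of 17 tested, 6 fell, 1 rose and 10 did not pass (median -0.44). Over all targets, 14.2% were called lower and 15.3% higher. Bpifa1, an airway surface protein of secretory cells, was at -2.38, with libraries spread from 19.9 to 165 CPM in HDM and from 180 to 1148 CPM in PBS. Its log2 fold change was -1.65 without PBS replicate 1 and -2.91 without HDM replicate 2, with the call kept. Cckar, a receptor for cholecystokinin, was at -1.26 and Hp, haptoglobin, at -0.70. Pigr, which carries polymeric immunoglobulin across epithelium, was the gene that rose, at 1548 ± 468 CPM in HDM (SD, n = 3) and 160 ± 29.6 CPM in PBS (SD, n = 4), a log2 fold change of 3.26. It was also higher in HDM+Nafamostat than in PBS (2.92). Cckar (0.70) was the 1 gene called of these 17 in HDM+Nafamostat against HDM (2 by DESeq2), and it lost that call without any 1 library other than HDM+Nafamostat replicate 2 (0.50 to 0.81).

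Of 11 transcription factors of secretoglobin promoters and airway epithelium, 2 fell, 1 rose and 8 did not pass in HDM against PBS. Over all targets, 14.2% were called lower and 15.3% higher, so these counts do not set the factors apart. Foxa1, a forkhead factor of airway epithelium, was at -0.83 and Klf5 at -0.56, while Elf3, an epithelial factor induced in inflammation, was at 0.49. Foxa2, another forkhead factor, had the lowest value of the list (-1.85, SE 0.81) and did not pass (edgeR adjusted p = 0.0991). Elf3 lost its call without any 1 library other than HDM replicate 3 or PBS replicate 2 (0.41 to 0.47), and Klf5 without HDM replicate 3 and PBS replicate 2 together (-0.50, edgeR adjusted p = 0.0831). Nkx2-1, which was chosen after its values were seen because it is the named regulator of these promoters, averaged 21.6 ± 3.03 CPM in HDM (SD, n = 3) and 21.8 ± 5.03 CPM in PBS (SD, n = 4), at a log2 fold change of -0.02. In HDM+Nafamostat against HDM, the edgeR test called 0 of the 11 factors, with 2 at an unadjusted p under 0.05 and 0 by DESeq2. Set against PBS, HDM+Nafamostat had 1 factor called higher, Elf3 (0.65), and 1 lower, Foxa2 (-1.91, SE 0.60, edgeR adjusted p = 0.0398). Either count was 0 to 1 with 1 library left out.

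Notch signalling, which holds airway progenitors in the secretory fate in mice, was read through 13 ligands, receptors and targets. In HDM against PBS, 9 fell and 4 did not pass (median -0.57), beside 14.2% of all targets called lower. The receptors Notch3 (-1.69) and Notch1 (-1.23) and the target Heyl (-1.18) were among those that fell. Most of these 13 genes also act in vessels and other lung cells, so the whole tissue does not place their change in the airway. The count of 9 was 5 without HDM replicate 3 and 6 without HDM replicate 2. In HDM+Nafamostat against HDM, the edgeR test called 0 of the 13, with 5 at an unadjusted p under 0.05 and 2 by DESeq2. Notch3 was lower in HDM+Nafamostat than in PBS (-1.10).

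Goblet cell genes moved the other way from most secretoglobins. Of 13 tested in HDM against PBS, 12 rose and 1 did not pass, with a median log2 fold change of 2.28. Clca1, a secreted regulator of mucus, averaged 2961 ± 598 CPM in HDM (SD, n = 3) and 2.97 ± 1.73 CPM in PBS (SD, n = 4), a log2 fold change of 9.93. Muc5ac, the inducible airway mucin, was at 4.75 and Agr2, which folds mucins, at 4.18. The summed level of the list was 4948 to 5878 CPM in HDM+Nafamostat, 3585 to 5061 CPM in HDM and 145 to 260 CPM in PBS. In HDM+Nafamostat against HDM, Slc26a4, the anion exchanger pendrin, was the 1 goblet gene called lower (-1.11), and Clca1 stood at 0.37 without passing. The edgeR test called 0 of the 13 goblet genes higher, with 5 higher at an unadjusted p under 0.05, and DESeq2 called 2 higher and 2 lower. With no filter on low counts, edgeR called 4 higher. The Slc26a4 call was lost without HDM+Nafamostat replicate 3 (-1.09, edgeR adjusted p = 0.103).

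Markers of other cells were read beside the secretoglobins, with 14.2% of all targets called lower and 15.3% higher in HDM against PBS. Of 19 ciliated cell genes, 5 fell, 1 rose and 13 did not pass in HDM against PBS, and the summed level was 935 to 1129 CPM in HDM+Nafamostat, 759 to 922 CPM in HDM and 1269 to 1385 CPM in PBS, with Tppp3 (-0.998), a tubulin-binding protein, as the leading gene. Of 10 general epithelial genes, 3 fell, 1 rose and 6 did not pass, at a summed level of 1500 to 1716 CPM in HDM+Nafamostat, 1300 to 1403 CPM in HDM and 1657 to 1793 CPM in PBS. Leukocyte markers summed to 894 to 1470 CPM in HDM+Nafamostat, 1213 to 1961 CPM in HDM and 480 to 608 CPM in PBS, with 6 of 9 higher in HDM than in PBS. Among 12 genes of alveolar type 2 cells, 3 rose, 4 fell and 5 did not pass, with the surfactant genes Sftpa1 at 1.03, Sftpb at -0.78 and Sftpc at 0.24, the last without passing. Without HDM replicate 3 and PBS replicate 2 together, Sftpb lost its call (-0.68, edgeR adjusted p = 0.0512), and without PBS replicate 4 Sftpc was called (0.46, edgeR adjusted p = 0.0278). The part of each cell type in the secretoglobin levels was not tested.

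Read against the summed counts of the 10 general epithelial genes in the same library, the log2 difference between HDM and PBS was -0.36 for Scgb1a1, -1.34 for Scgb3a2, -0.86 for Scgb1c1 and 0.97 for Scgb3a1. Read against the 19 ciliated cell genes, it was -0.02 for Scgb1a1, -1.002 for Scgb3a2, -0.52 for Scgb1c1 and 1.31 for Scgb3a1. The direction for Scgb3a2 and Scgb1c1 was thus the same on all of these scales, whereas Scgb1a1 against ciliated genes was 4.77 ± 0.17 in HDM (SD, n = 3) and 4.79 ± 0.11 in PBS (SD, n = 4) on the log2 scale, a difference within the spread of the libraries.

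Of 7 reported partners of secretoglobins tested in HDM against PBS, 1 was lower, 1 was higher and 5 did not pass. These shares are near those over all targets, of which 14.2% were called lower and 15.3% higher. Lrp2, the endocytic receptor megalin, which takes up Scgb1a1 protein in the mouse kidney, was lower (-0.93), and Pla2g4a, a cytosolic phospholipase A2, was higher (0.60). The Pla2g4a call was lost without HDM replicate 2 or 3 or PBS replicate 2 or 3 (0.49 to 0.57), and without HDM replicate 3 and PBS replicate 2 together (0.42).

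Across all 10 libraries, the targets whose level followed each secretoglobin most closely were sought by the root mean square difference of centred log2 CPM over 9492 targets with a mean of at least 10 CPM. The closest to Scgb1a1 were Klhl5, Pitpnc1, Wfdc1 and Lrrc58, at differences of 0.07 to 0.10. Those closest to Scgb3a1 were Clybl, Yif1a, Pdap1 and Apbb1ip (0.16 to 0.20). For Scgb3a2 they were Gstm1, Fgfbp1, Upk3b and Tubb1 (0.26 to 0.28), and for Scgb1c1 they were Gstm1, Clec3b, Ccdc129 and Ifit2 (0.19 to 0.21). Gstm1, a glutathione transferase of the detoxification list, was thus the nearest target to both Scgb3a2 and Scgb1c1. Among the members, the distance was 0.31 between Scgb3a2 and Scgb1c1, 0.33 between Scgb1a1 and Scgb1c1 and 0.56 between Scgb1a1 and Scgb3a2. It was 0.68 between Scgb3a1 and Scgb1a1, 0.90 between Scgb3a1 and Scgb1c1 and 1.09 between Scgb3a1 and Scgb3a2. These likenesses describe 10 libraries that share 3 groups and carry no test.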

How the data were processed

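RNA from the upper portion of the left lung lobe was profiled with the Ion AmpliSeq mouse transcriptome panel and sequenced on an Ion S5 XL. It was processed with Torrent Suite 5.10.1 against mm10, per the study's methods and the submitters' processing notes. The deposited values are raw counts per amplicon, 1 column per library, with no normalization by the authors. Spreadsheet conversion had changed 27 symbols into dates, and these were read back. Totals were 5901279 to 9666354 counts, so 3 counts correspond to 0.310 to 0.508 CPM. Confidence intervals are for the difference between groups, with a width set by the variation between libraries, and the SDs give the spread of the libraries.

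Each comparison was fitted on its own libraries with edgeR 4.0.16 (quasi-likelihood, TMM, at least 30 summed counts, R 4.3.3), with Benjamini-Hochberg adjustment over all targets. CPM levels used TMM over all 10 libraries. Ratios used counts plus 0.5 and exact two-sided permutation tests (scipy 1.17.1). Same-numbered libraries did not deviate together. The fit was also run on simulated counts, whose outcome is not given and is not used as support. Alternatives were DESeq2 1.42.0, other scalings and filters, all groups in 1 fit, the replicate block, and leaving out libraries.

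The members and gene lists were chosen with earlier results of these data known. Genes were named from the 4 members, up to 6 genes per list with the smallest p in HDM against PBS, up to 2 in HDM+Nafamostat against HDM, list genes at 300 CPM or more in a group, nasal and liver genes, and the 4 nearest targets of each member. Eligible genes without a value of their own are covered by the counts of their lists, and 1 result is not reported here. Nkx2-1, Retnla, Krt5, Trp63 and genes at 0 fall outside this rule.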

Additional observations from a re-analysis of the deposited data

Results flagged for a closer look

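A check for a single library far from its group was run on the 23 sets of 4 PBS values, where chance flags about 1 in 20 groups, and it marked 2. The Scgb1a1 level of PBS replicate 1, 33053 CPM, stood apart from the other PBS libraries (37904 to 38413 CPM), with a gap that was 0.905 of the range of the group. It was still above every HDM and HDM+Nafamostat library. The log2 ratio of Scgb1a1 to Scgb1c1 in PBS replicate 2, 10.32, stood apart from the other PBS libraries (at most 9.76), with a gap that was 0.906 of the range. In that library Scgb1c1 was the lowest of the PBS group, at 29.5 CPM, and the summed olfactory receptor level was the highest of the group, at 619 CPM, whose part was not tested.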

How the results depend on the processing

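Of 176 values of the 4 secretoglobins under other settings, 156 kept their direction and their side of the threshold. The lower Scgb3a2 and Scgb1c1 after HDM and in HDM+Nafamostat against PBS kept their calls in all settings run, and the lower Scgb1a1 after HDM lost its call in 1 (-0.68, without HDM replicate 3 and PBS replicate 2; -0.80 at the other end with single libraries left out). The log2 fold change of Scgb3a1 in HDM against PBS passed the threshold with DESeq2 (0.56), no filter (0.55), filterByExpr (0.56) and all 3 groups in one fit (0.57), and ranged from 0.38 to 0.72 with libraries left out. It passed in HDM+Nafamostat against PBS with DESeq2 (0.55), no filter (0.57) and without PBS replicate 1 (0.73), and was 0.39 at the lowest with libraries left out. There Scgb1a1 passed with library totals only (-0.52) and DESeq2 (-0.47). Scgb3a1 in HDM+Nafamostat against HDM changed sign with library totals only (0.036) and no filter (0.0013), and ranged from -0.12 to 0.16 with libraries left out, while Scgb1c1 ranged from -0.059 to 0.23. The log2 ratio differences of that comparison ranged from -0.28 to 0.14 for Scgb1a1 over Scgb3a2 and from -0.27 to 0.053 for Scgb3a1 over Scgb1c1. Nkx2-1 in HDM against PBS ranged from -0.14 to 0.10. Of 681 values of the other named genes, 623 kept direction and call, 51 lost the call, 2 gained it and 5 changed sign, all of these Nkx2-1. Foxa2 was not among the genes read singly under these settings. The cause of these moves was not tested.

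The count of targets called in HDM+Nafamostat against HDM depended most on the setting. Against 137 higher and 284 lower as reported, DESeq2 gave 415 higher and 557 lower, no filter 522 and 749, library totals only 239 higher, and filterByExpr 219 higher. With libraries left out, the counts were 1 to 259 higher and 14 to 453 lower. With libraries left out they were 1337 to 2521 higher and 1138 to 2347 lower in HDM against PBS, and 577 to 1450 higher and 273 to 1059 lower in HDM+Nafamostat against PBS. Settings that leave out 1 library of each group were added after seeing the data, and fewer libraries were then fitted.

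Libraries with the same number did not deviate together, with correlations of their deviations from -0.204 to 0.158, so the paired analysis is given here only. With the replicate block, HDM+Nafamostat against HDM had 10 targets higher and 75 lower, Scgb3a1 changed sign there (0.0051), and Scgb3a1 passed the threshold in HDM+Nafamostat against PBS (0.57, edgeR adjusted p = 0.0209). The block changed no other call of the 4 secretoglobins, and it left 1 detoxification enzyme called higher in HDM+Nafamostat against HDM, against 4 without it. Scgb1c1 rested on 118 to 345 counts per library, the fewest of the 4.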

Other observations

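Basal and neuroendocrine cell genes, which mark rarer airway cells, were near the floor of the panel. Of 9 tested in HDM against PBS, 1 rose, 1 fell and 7 did not pass, beside 15.3% higher and 14.2% lower over all targets. The summed level was 20.1 to 25.5 CPM in HDM+Nafamostat, 18.9 to 27.1 CPM in HDM and 24.6 to 33.3 CPM in PBS. The basal cell markers Krt5 and Trp63, chosen after their values were seen, averaged 1.80 ± 1.27 and 0.945 ± 0.108 CPM in HDM (SD, n = 3) and 1.68 ± 1.18 and 1.18 ± 0.545 CPM in PBS (SD, n = 4).

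In HDM+Nafamostat against HDM, the edgeR test called 1 of 19 ciliated cell genes, Dnah5, an axonemal dynein, which was higher (log2 fold change 1.16, SE 0.26, adjusted p = 0.0295). It lost that call without HDM+Nafamostat replicate 3 (0.90), HDM replicate 1 (1.05) or HDM replicate 3 (1.02). The call was also lost without HDM+Nafamostat replicate 2 and HDM replicate 3 together (1.05).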
